A study of Mus musculus with 24 samples.

Results

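Circadian clock genes were followed across mouse hearts that had undergone pressure overload, inhaled benzene, both or neither. The genes were taken by name from the deposited count table: Arntl, Clock, Npas2, Per1, Per2, Per3, Nr1d1, Nr1d2, Dbp and Tef, which are 10 of its 25229 gene symbols. All 10 passed the filter on low counts and are among the 13571 genes tested. Poly-A RNA was taken from left ventricular and septal tissue of C57BL/6 males. TAC/Benzene hearts had transverse aortic constriction (TAC), a surgical narrowing of the aorta that makes the heart pump against a raised pressure, and after 1 week of recovery inhaled benzene at 50 ppm for 6 hours a day, 5 days a week, over 6 weeks. TAC/Air hearts had the same surgery and breathed HEPA-filtered air. Sham/Benzene and Sham/Air hearts had a sham operation and the matching exposure. Each group held 6 libraries. Nothing in the labels ties a library to its own animal, so the p-values speak for the spread among these libraries, which may in part be technical.

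The circadian clock is a transcriptional feedback loop that runs in nearly every cell, heart muscle cells included. BMAL1 (encoded by Arntl) pairs with CLOCK or NPAS2 on E-box elements and switches on the Per and Cry genes, whose proteins then inhibit the pair, as well as Nr1d1 and Nr1d2, whose proteins REV-ERB alpha and beta repress Arntl and Npas2 through ROR elements. DBP and TEF are PAR bZIP factors that carry the rhythm to output genes through D-box elements. In peripheral tissues of mice the transcripts peak in a known order over the day, with Arntl and Npas2 first, then Nr1d1, then Dbp, Per3 and Per2, and Cry1 late. The labels used here give no time of day of tissue collection, so none of the values below can be set against it.

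Letters of the promoter elements known from this loop were looked for in RefSeq promoter windows (GRCm38.p6), of which 14 belonged to 9 of the 10 genes. The stretches that held a match are shown to give the letters themselves, with the match in capitals. The E-box CACGTG, bound by the BMAL1 pair, was found for Per1 at chr11:69098753-69098818 and at both starts of Tef, chr15:81802516-81802581 and chr15:81811246-81811311, all on the plus strand. The E-prime box, a variant with the letters CACGTT, was found in reverse for Nr1d1 at chr11:98775378-98775435 on the minus strand. Per3 held the D-box TTANGTAA at 2 places in chr4:151044786-151044900 on the minus strand, and Arntl held the ROR element TAGGTCA, 30 bases after a start, in chr7:113207530-113207558 on the plus strand.
Arntl: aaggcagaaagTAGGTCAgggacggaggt
Per1: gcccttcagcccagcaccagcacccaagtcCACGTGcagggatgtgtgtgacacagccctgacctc
Per3: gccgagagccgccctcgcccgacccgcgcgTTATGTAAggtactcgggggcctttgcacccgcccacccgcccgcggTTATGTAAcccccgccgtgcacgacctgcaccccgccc
Nr1d1: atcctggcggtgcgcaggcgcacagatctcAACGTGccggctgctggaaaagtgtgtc
Tef, first start: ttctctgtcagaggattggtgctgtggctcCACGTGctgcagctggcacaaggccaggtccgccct
Tef, second start: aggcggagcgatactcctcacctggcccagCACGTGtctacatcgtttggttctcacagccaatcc
Both strands were searched. Of all 32851 promoter windows, 7.15% held the E-box, 4.68% the E-prime box, 2.32% the D-box and 2.61% the ROR element, where of the 14 windows of the clock genes 3 held the E-box and 1 each of the others. The windows of Clock, Npas2, Nr1d2 and Dbp held no match. A match describes these letters and not a bound site.

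Total counts ran from 10016860 to 13724100 in TAC/Benzene, from 10479981 to 13581729 in TAC/Air, from 9396445 to 14632231 in Sham/Benzene and from 4170660 to 12718494 in Sham/Air. Sham/Air replicate 1 stood apart, with a Spearman correlation of 0.852 to 0.913 with the other libraries across the genes tested, where those 23 correlated at 0.963 to 0.996 with each other. Libraries of a group also differed along the GC content of genes. The correlation across genes between a library's deviation from its group mean and GC content ran from -0.52 to 0.43 in TAC/Benzene, from -0.63 to 0.52 in TAC/Air, from -0.56 to 0.58 in Sham/Benzene and from -0.72 to 0.72 in Sham/Air. This value split with the replicate number, and differently by surgery. In both TAC groups it was 0.19 to 0.52 in replicates 1 to 3 and -0.63 to -0.31 in replicates 4 to 6, except 0.19 in TAC/Benzene replicate 5. In both sham groups it was -0.72 to 0.21 in replicates 1 to 3 and 0.45 to 0.72 in replicates 4 to 6. What the replicate numbers stand for is not given in the labels. Clock and Nr1d2, with transcripts of 40.9% and 41.8% GC, lie among the AT-rich genes, and Per1 and Dbp, at 59.4% and 61.6% GC, among the GC-rich ones. Results that move with these features are therefore given with Sham/Air replicate 1 left out, or with offsets for each library's trend with GC content and transcript length. All 10 listed ventricular cardiomyocyte markers were above 1 CPM in every group, and no skeletal muscle marker had a mean of 1 CPM in any group. Of 4 atrial markers, 3 had such a mean in every group, and their sum ran from 28.8 CPM in a TAC/Benzene library to 216 CPM in a Sham/Benzene library. In every group 1 of 6 adipocyte markers and 1 of 4 erythroid markers had such a mean. Of 6 lung epithelial markers, 2 had such a mean in Sham/Air and none in the other groups, and their sum in Sham/Air was 7.10 to 10.96 CPM, against at most 2.47 CPM in any library of the other groups, where 2 of the 6 were at 0 throughout.

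Levels per kilobase of transcript, averaged over the 24 libraries, placed the output factor Tef highest at 50.2 CPM per kb, followed by Nr1d2 at 44.6, Dbp at 43.8 and Nr1d1 at 39.4 CPM per kb. The repressors Per1, Per3 and Per2 lay at 11.2, 7.26 and 5.603 CPM per kb, and Clock at 7.49 CPM per kb. Arntl at 1.88 and Npas2 at 0.59 CPM per kb were the lowest of the 10. The highest gene was not the same in every group, as Nr1d1 at 46.3 CPM per kb was above Tef at 45.5 in TAC/Air, and Nr1d2 at 52.8 CPM per kb was above Tef at 51.8 in Sham/Air. CPM here are read counts scaled to a common library size by TMM, and levels of different genes are compared per kb only.

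**Figure D1:**
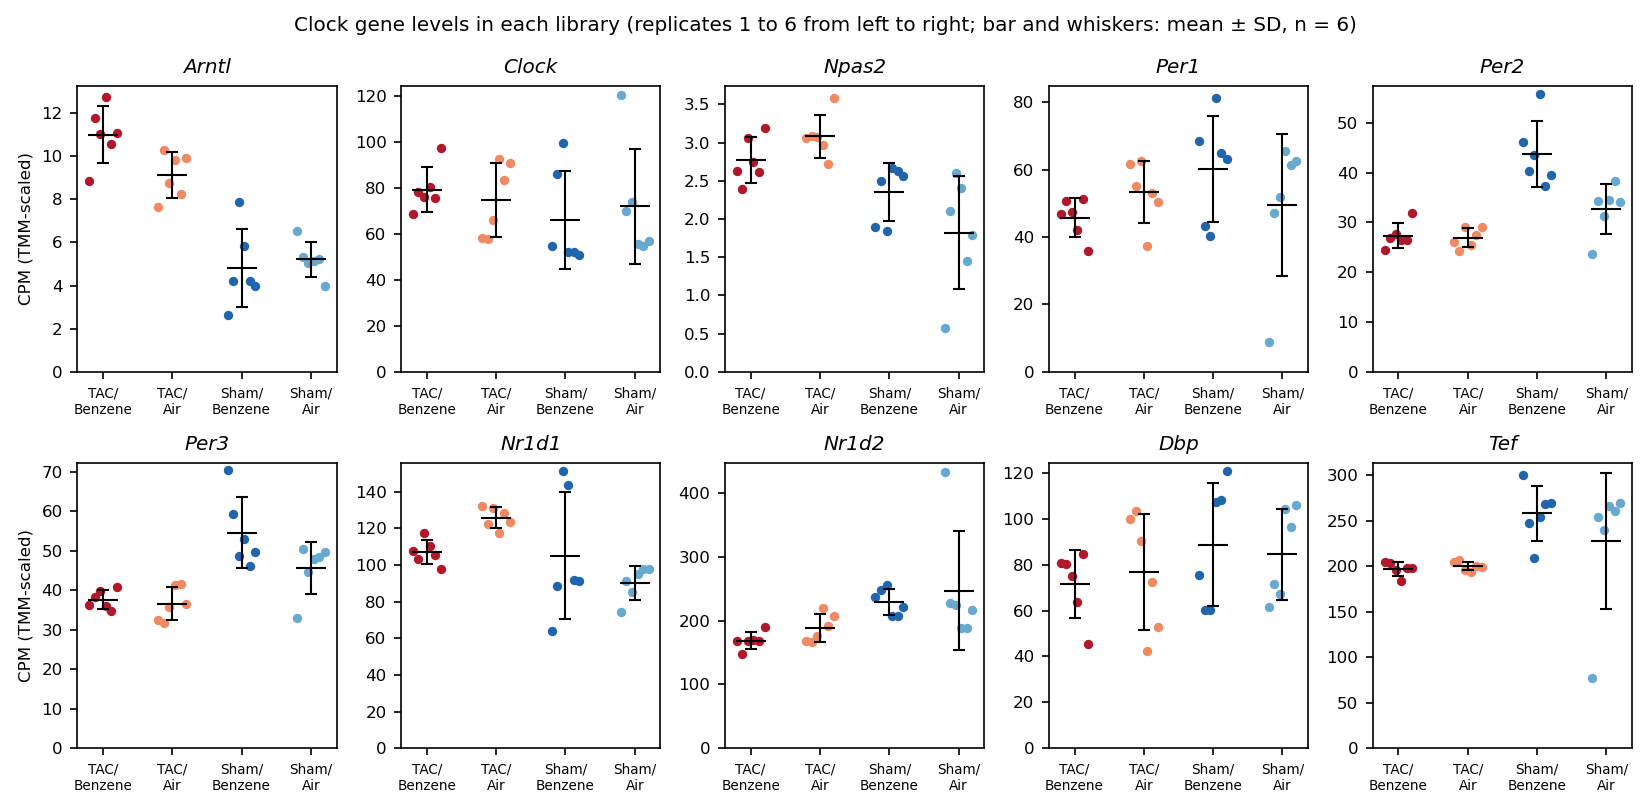
Level of each clock gene in CPM (vertical axis, from 0) in every library of the 4 groups, with the mean and SD of 6 libraries drawn as bar and whiskers. Arntl lies between 7.62 and 12.7 CPM in the TAC libraries, Per2 and Per3 lie lower in every TAC library than in the sham libraries of the same exposure except 1 Sham/Air library, and Sham/Air replicate 1 lies far from its group for Clock, Per1, Per3, Nr1d2 and Tef.

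TAC was accompanied by more Arntl RNA and less Per3 RNA at either exposure. Arntl averaged 2.29 times its sham level with benzene and 1.75 times with air. With air, TAC hearts also had more Npas2 and more Nr1d1, while with benzene they had less Per2 and less Nr1d2. Per2 and Nr1d2 averaged 0.82 and 0.76 times their sham level with air too, without passing. None of the 10 genes passed the test of a difference in TAC effect between exposures. Clock, Per1, Dbp and Tef passed the test in neither comparison. These are whole-tissue values, in which fewer cells of a type and less RNA per cell cannot be told apart.

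Arntl, the activator without which the loop stops, ran from 8.83 to 12.7 CPM in TAC/Benzene (median 11.04) and from 2.64 to 7.86 CPM in Sham/Benzene (median 4.22). With air it ran from 7.62 to 10.3 CPM in TAC/Air (median 9.30) and from 3.995 to 6.53 CPM in Sham/Air (median 5.19). Every TAC library of either exposure was above every sham library of the same exposure. The log2 fold change was 1.19 ± 0.17 (SE, adjusted p = 9.11e-06) with benzene and 0.82 ± 0.17 (adjusted p = 0.00139) with air (edgeR quasi-likelihood F test, adjusted after Benjamini and Hochberg over all genes). Arntl counts behind these values were low, between 23 and 162 per library.

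Npas2, the partner that can stand in for CLOCK, ran from 2.39 to 3.19 CPM in TAC/Benzene (median 2.69) and from 1.85 to 2.67 CPM in Sham/Benzene (median 2.53). With air it ran from 2.71 to 3.59 CPM in TAC/Air (median 3.07) and from 0.5682 to 2.60 CPM in Sham/Air (median 1.95). The groups overlapped with benzene and did not overlap with air. Npas2 was higher in TAC/Air with a log2 fold change of 0.69 ± 0.19 (edgeR adjusted p = 0.0094), a call that was lost when only those 2 groups were fitted (adjusted p = 0.0629), and its log2 fold change with benzene was 0.23 (adjusted p = 0.469).

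Clock, the histone acetyltransferase partner of BMAL1, had 68.7 to 97.2 CPM in TAC/Benzene (median 77.0) against 50.6 to 99.6 CPM in Sham/Benzene (median 53.5). Its levels were 57.6 to 92.7 CPM in TAC/Air (median 74.9) against 54.7 to 120 CPM in Sham/Air (median 63.6). The groups overlapped in both comparisons, with log2 fold changes of 0.27 ± 0.20 with benzene (edgeR adjusted p = 0.433) and 0.07 ± 0.20 with air (adjusted p = 0.856). The same comparisons gave 0.35 (adjusted p = 6.39e-04) and 0.27 (adjusted p = 0.00832) with GC and length offsets.

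Among the Per genes, which encode the inhibitors of the loop, Per2 and Per3 were lower in TAC hearts. Per2 ran from 24.4 to 31.9 CPM in TAC/Benzene (median 26.7) against 37.4 to 55.8 CPM in Sham/Benzene (median 41.9), and from 24.3 to 29.2 CPM in TAC/Air (median 26.8) against 23.6 to 38.3 CPM in Sham/Air (median 34.3). With benzene the groups did not overlap and Per2 fell by 0.68 ± 0.11 on the log2 scale (edgeR adjusted p = 3.11e-05). With air only Sham/Air replicate 1, at 23.6 CPM, lay among or below the TAC libraries, and the log2 fold change was -0.29 ± 0.11 (adjusted p = 0.0668). Without that library it was -0.36 (adjusted p = 0.00449).

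Per3 ran from 34.6 to 40.8 CPM in TAC/Benzene (median 37.2) against 46.1 to 70.3 CPM in Sham/Benzene (median 51.2), and from 31.7 to 41.5 CPM in TAC/Air (median 36.2) against 33.0 to 50.4 CPM in Sham/Air (median 48.1). The benzene groups did not overlap, and in air only Sham/Air replicate 1 reached into the TAC range. Per3 fell by 0.54 ± 0.11 on the log2 scale with benzene (edgeR adjusted p = 7.81e-04) and by 0.33 ± 0.11 with air (adjusted p = 0.0405). The call with air sat near the threshold: leaving out a single library ended it in 9 of 12 cases, with log2 fold changes of -0.30 to -0.34 and adjusted p up to 0.0915.

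Per1, which also answers to stress hormones and so can move apart from the loop, ran from 36.01 to 51.4 CPM in TAC/Benzene (median 47.1) against 40.3 to 81.3 CPM in Sham/Benzene (median 64.0). It ran from 37.5 to 62.5 CPM in TAC/Air (median 54.2) against 8.81 to 65.6 CPM in Sham/Air (median 56.8). The ranges overlapped in both comparisons. The log2 fold changes were -0.40 ± 0.25 with benzene (edgeR adjusted p = 0.351) and 0.09 ± 0.26 with air (adjusted p = 0.862), and with GC and length offsets the first was -0.49 (adjusted p = 0.00163).

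The REV-ERB genes differed from each other. Nr1d1 ran from 98.0 to 117 CPM in TAC/Benzene (median 107) against 64.1 to 152 CPM in Sham/Benzene (median 91.4), where its log2 fold change was 0.02 ± 0.14 (edgeR adjusted p = 0.955). With air it ran from 117 to 132 CPM in TAC/Air (median 126) against 74.2 to 97.8 CPM in Sham/Air (median 93.3). The air groups did not overlap and Nr1d1 rose by 0.48 ± 0.14 on the log2 scale (adjusted p = 0.0206), while the widely spread Sham/Benzene libraries lay on both sides of TAC/Benzene. The air value was 0.31 (adjusted p = 0.213) with GC and length offsets, and with the same offsets but without Sham/Air replicate 1 it was 0.46 (adjusted p = 0.0438). In GENCODE vM21, 8.55% of the exonic bases of Nr1d1 lie opposite exons of Thra, a thyroid hormone receptor gene. How strands were handled in counting is not given in the sources used here, so reads of the shared bases cannot be told apart. Thra itself passed in neither comparison, with log2 fold changes of -0.24 with benzene (adjusted p = 0.4927) and -0.07 with air (adjusted p = 0.843).

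Nr1d2 ran from 148 to 190 CPM in TAC/Benzene (median 168) against 208 to 256 CPM in Sham/Benzene (median 229), and from 166 to 219 CPM in TAC/Air (median 184) against 188 to 433 CPM in Sham/Air (median 220). The benzene groups did not overlap. The log2 fold change was -0.45 ± 0.15 with benzene (edgeR adjusted p = 0.0384) and -0.39 ± 0.15 with air (adjusted p = 0.0791). The call with benzene was lost in 8 of 12 cases when 1 library was left out (log2 fold change -0.41 to -0.45, adjusted p up to 0.0877). With GC and length offsets Nr1d2 was called lower in both, at -0.41 with benzene and -0.21 with air (adjusted p = 0.00114).

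Of the output factors, Dbp ran from 45.3 to 84.6 CPM in TAC/Benzene (median 77.5) against 60.2 to 121 CPM in Sham/Benzene (median 91.4), and from 42.6 to 103 CPM in TAC/Air (median 81.3) against 61.4 to 106 CPM in Sham/Air (median 84.0). All 4 groups overlapped, and the log2 fold changes were -0.31 ± 0.22 with benzene (edgeR adjusted p = 0.413) and -0.14 ± 0.22 with air (adjusted p = 0.73). Exons of Dbp overlap those of Sphk2, a lipid kinase gene on the opposite strand, over 18.0% of its exonic bases. Sphk2 passed in neither comparison.

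Tef ran from 184 to 205 CPM in TAC/Benzene (median 198) against 209 to 300 CPM in Sham/Benzene (median 261), and from 194 to 207 CPM in TAC/Air (median 200) against 76.7 to 269 CPM in Sham/Air (median 258). With benzene every TAC library was below every sham library, and with air this held for all Sham/Air libraries but replicate 1. The log2 fold change was -0.39 ± 0.17 with benzene (edgeR adjusted p = 0.148) and -0.19 ± 0.17 with air (adjusted p = 0.516). Without Sham/Air replicate 1 the air value was -0.37 (adjusted p = 1.22e-04), and with GC and length offsets the benzene value was -0.42 (adjusted p = 0.0176).

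Counted together, 4 of the 10 genes were called with benzene, 1 higher and 3 lower, where 16.6% of all genes were called, 8.67% higher and 7.97% lower. With air, 4 were called, 3 higher and 1 lower, where 16.2% of all genes were called, 8.81% higher and 7.35% lower. The groups did not overlap for 5 genes with benzene and for 3 with air, against 13.9% and 9.49% of all genes. The median log2 fold change of the 10 genes was -0.35 with benzene and -0.04 with air (all genes: -0.00 and -0.01), and the median size of change was 0.39 and 0.31 (all genes: 0.18 and 0.20). Under GC and length offsets the calls became 2 higher and 5 lower with benzene, and 3 higher and 3 lower with air. Leaving out Sham/Air replicate 1 gave 3 higher and 3 lower with air. The summed cardiomyocyte markers moved with surgery too, at 66757 to 73444 CPM in TAC/Benzene and 63779 to 74916 CPM in TAC/Air, against 86911 to 101530 CPM in Sham/Benzene and 93461 to 127253 CPM in Sham/Air. Their part in the clock gene differences was not tested.

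**Figure D2:**
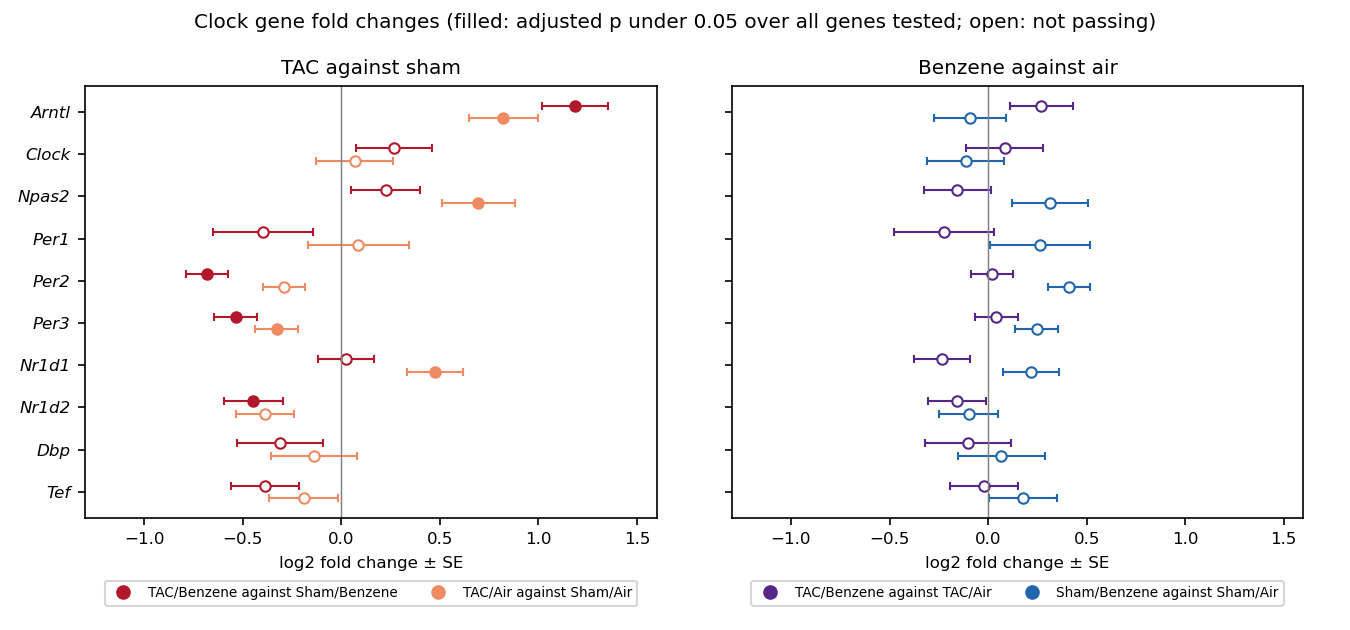
Log2 fold change with its standard error for the 10 clock genes, TAC against sham in the left panel and benzene against air in the right panel, filled where the adjusted p over all genes tested passed. Arntl is the gene farthest to the right in both TAC comparisons, at 1.19 with benzene and 0.82 with air, and no filled point stands in the benzene panel.

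Further clock genes moved with TAC as well. From a list of 20 (the Cry genes, their turnover factors, ROR receptors, D-box and E-box regulators and output genes), 9 passed with benzene, 4 higher and 5 lower, and 6 with air, 2 higher and 4 lower, where 16.6% and 16.2% of all genes were called. The median log2 fold change of the list was -0.09 with benzene and -0.06 with air (all genes: -0.00 and -0.01), and the median size of change was 0.26 and 0.23 (all genes: 0.18 and 0.20). Bhlhe40, whose protein DEC1 represses E-box targets, ran from 107 to 121 CPM in TAC/Benzene against 65.6 to 104 CPM in Sham/Benzene, and from 124 to 129 CPM in TAC/Air against 65.8 to 82.8 CPM in Sham/Air. It rose by 0.48 ± 0.10 on the log2 scale with benzene (edgeR adjusted p = 9.61e-04) and by 0.78 ± 0.10 with air (adjusted p = 2.82e-06), with no overlap of groups in either.

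Hlf, the third PAR bZIP factor, ran from 26.2 to 33.1 CPM in TAC/Benzene against 47.8 to 56.6 CPM in Sham/Benzene, and from 33.9 to 44.7 CPM in TAC/Air against 45.7 to 92.3 CPM in Sham/Air. It fell by 0.82 ± 0.13 with benzene (edgeR adjusted p = 3.45e-05) and by 0.64 ± 0.13 with air (adjusted p = 7.09e-04), again without overlap. Usp2, a deubiquitinase with a rhythmic transcript, fell by 0.49 with benzene (adjusted p = 2.57e-04) and by 0.45 with air (adjusted p = 7.48e-04). Nampt, the rate-limiting enzyme of NAD+ salvage and an E-box target, fell by 0.59 with benzene (adjusted p = 0.00379) and by 0.71 with air (adjusted p = 7.14e-04).

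The other calls stood in 1 of these comparisons. With air, Timeless rose by 0.47 ± 0.11 on the log2 scale (edgeR adjusted p = 0.00219) and the mitotic kinase gene Wee1 fell by 0.33 ± 0.11 (adjusted p = 0.0404). With benzene, Nfil3, whose protein E4BP4 represses D-box genes, rose by 0.47 (adjusted p = 0.00402) and Bhlhe41, encoding DEC2, by 0.41 (adjusted p = 0.0379). Fbxl21, an F-box protein that acts on CRY, rose by 1.596 ± 0.35 (adjusted p = 0.00183), from few reads: 1.24 ± 0.52 CPM in TAC/Benzene and 0.41 ± 0.14 CPM in Sham/Benzene (SD, n = 6 each). Ciart, encoding the repressor CHRONO, fell by 0.64 (adjusted p = 0.0303) and Btrc, a ubiquitin ligase subunit that targets PER, by 0.24 (adjusted p = 0.038). The calls of Wee1, Ciart, Bhlhe41 and Btrc were each lost when single libraries were left out, with adjusted p up to 0.0896, 0.081, 0.0924 and 0.0859.

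Benzene against air gave no call among the 10 genes at either surgery. In TAC hearts 0 of the 10 passed in edgeR, where 0.582% of all genes were called, and none had an unadjusted p under 0.05; DESeq2 and limma-voom also called 0. In sham hearts 0 passed, where 0.0221% of all genes were called, with 2 at an unadjusted p under 0.05 and again 0 by DESeq2 and limma-voom. The median log2 fold change was -0.06 in TAC hearts and 0.20 in sham hearts (0.00 over all genes in each).

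In TAC hearts, Nr1d1 was the gene whose groups did not overlap, as for 2.7% of all genes. It ran from 98.0 to 117.3 CPM in TAC/Benzene and from 117.4 to 132 CPM in TAC/Air, so that the ranges all but met. Its log2 fold change was -0.24 ± 0.14 (95% interval -0.53 to 0.06, edgeR adjusted p = 0.988), and -0.24 (adjusted p = 0.0397) in a fit of those 2 groups alone. Arntl was at 0.27 ± 0.16 (interval -0.06 to 0.60, adjusted p = 0.972). For Per2 the interval was -0.20 to 0.24 and for Per3 -0.19 to 0.27, which are the bounds these data set on a benzene difference in TAC hearts. Of the 20 further clock genes Nfil3 alone passed, with 13.4 to 16.3 CPM in TAC/Benzene against 8.88 to 12.7 CPM in TAC/Air and a log2 fold change of 0.49 ± 0.11 (adjusted p = 0.039). Leaving out single libraries ended that call in 11 of 12 cases (0.46 to 0.52, adjusted p up to 0.132).

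In sham hearts, Per2 had the smallest p of the 10, with 37.4 to 55.8 CPM in Sham/Benzene against 23.6 to 38.3 CPM in Sham/Air. The ranges overlapped, and the log2 fold change of 0.41 ± 0.11 (unadjusted p = 0.00071) did not pass across all genes (edgeR adjusted p = 0.26). Per3 followed at 0.25 ± 0.11 (unadjusted p = 0.0329, adjusted p = 0.819). Arntl stood at -0.09 ± 0.18 (interval -0.48 to 0.29). Among the further clock genes none passed, and the smallest p-values were those of Ciart at 0.52 (adjusted p = 0.801) and Bhlhe41 at -0.27 (adjusted p = 0.819).

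The difference between the TAC effects with benzene and with air was tested as an interaction, which used all 4 groups. In edgeR 0 of the 10 genes passed, where 0.169% of all genes did, with 2 at an unadjusted p under 0.05 and 0 by DESeq2 and limma-voom. Those 2 were Per2 at -0.39 ± 0.15 (unadjusted p = 0.0153, adjusted p = 0.784) and Nr1d1 at -0.45 ± 0.20 (unadjusted p = 0.0327, adjusted p = 0.966). The calls that stood at 1 exposure alone, those of Npas2, Nr1d1, Per2 and Nr1d2, are thus not shown to differ between exposures. Nfil3 had the smallest p of the further clock genes, at 0.48 (adjusted p = 0.61), followed by Bhlhe40 at -0.30 (unadjusted p = 0.0463).

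When the 4 group means of each gene were put in order, neighbouring groups mostly overlapped. The exceptions were Arntl and Nr1d1. For Arntl, TAC/Air at 9.11 ± 1.06 CPM lay wholly above Sham/Air at 5.21 ± 0.81 CPM. For Nr1d1, TAC/Benzene at 107 ± 6.58 CPM lay below TAC/Air at 126 ± 5.78 CPM without overlap (SD, n = 6 each). There the highest TAC/Benzene library, at 117.3 CPM, all but met the lowest TAC/Air library, at 117.4 CPM. Arntl was highest in TAC/Benzene at 10.99 ± 1.31 CPM and lowest in Sham/Benzene at 4.79 ± 1.81 CPM, while Per2 and Per3 were highest in Sham/Benzene, at 43.8 ± 6.64 and 54.5 ± 8.99 CPM.

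The Sham/Benzene libraries spread widely for Arntl and Nr1d1, as measured far more than in any other group. Arntl had 2.64, 4.22, 7.86, 5.82, 4.22 and 3.996 CPM in replicates 1 to 6, and Nr1d1 had 64.1, 88.5, 152, 144, 91.7 and 91.1 CPM. Replicate 1 was the lowest for both genes and replicates 3 and 4 the highest. The SD of log2 CPM in Sham/Benzene was 0.51 for Arntl and 0.47 for Nr1d1, against 0.17 and 0.09 in TAC/Benzene, 0.17 and 0.07 in TAC/Air and 0.22 and 0.15 in Sham/Air. The Sham/Benzene values stood at the 91.7 and 89.2 percentiles of all genes in that group. Of the 10 clock genes, 5 had an SD there above the median over all genes. Clock, Per1 and Dbp stood at the 86.2, 83.1 and 87.7 percentiles. Nr1d2, Tef, Per2, Per3 and Npas2 stood lower, at the 15.9 to 48.6 percentiles.

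Over the 10 genes the median SD was 0.14 in TAC/Benzene, 0.17 in TAC/Air, 0.31 in Sham/Benzene and 0.39 in Sham/Air. The same median over all genes was 0.15, 0.20, 0.23 and 0.42 in that order of groups. With all libraries, Sham/Benzene was the group of largest SD for 2 of the 10 genes (14.8% of all genes) and Sham/Air for 7 (73.8%). Without Sham/Air replicate 1 the Sham/Air value for the 10 genes was 0.15, and Sham/Benzene was then the group of largest SD for 7 of the 10 genes, as it was for 44.9% of all genes. Once each library's trend with GC content and length was removed, the SD in Sham/Benzene was as large as before for Arntl (0.50) and Nr1d1 (0.50), while that of Nr1d1 in Sham/Air was then 0.46, with Sham/Air replicate 1 lying 0.92 above its group mean. It was 0.17 for Clock and 0.15 for Dbp, which had been 0.43 and 0.45. The median SD over the 10 genes in Sham/Benzene was then 0.20, against 0.18 over all genes.

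**Figure D3:**
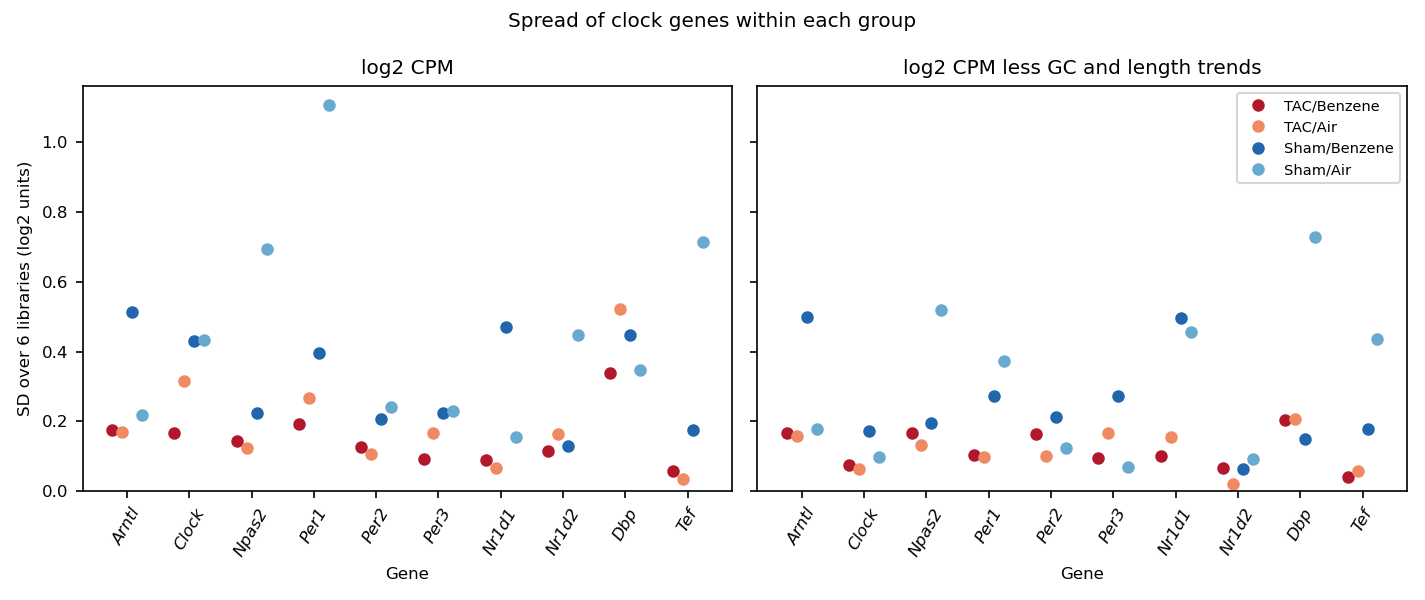
SD of log2 CPM over the 6 libraries of each group (vertical axis, log2 units) for the 10 clock genes, as measured in the left panel and with GC and length trends removed in the right panel. The Sham/Benzene points of Arntl and Nr1d1 stay near 0.50 in both panels, while those of Clock and Dbp drop to 0.17 and 0.15.

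Sham/Benzene replicates 1 and 3 differed in some further members of the loop and little in others. Replicate 1, low in Arntl, had the highest Per3 of its group at 70.3 CPM and the highest Tef at 300 CPM, while replicate 3, high in Arntl, had 48.7 CPM of Per3 and the lowest Tef at 209 CPM. Per2 had 46.1 and 43.6 CPM in replicates 1 and 3, Npas2 1.90 and 1.85 CPM and Nr1d2 237 and 256 CPM, which are small differences. Clock had 54.6 and 99.6 CPM, Per1 68.7 and 40.3 CPM and Dbp 75.3 and 60.4 CPM in replicates 1 and 3. Of the further clock genes, 4 are given here that were chosen after their values were seen. The rest of that list is not described for these 2 libraries. Cry1, the late-peaking repressor, had 24.3 CPM in replicate 1 and 14.5 CPM in replicate 3. Wee1 had 32.7 and 17.2 CPM and Ciart 14.98 and 9.34 CPM in the same 2 libraries, and Bhlhe40 had 65.6 and 104 CPM. With GC and length trends removed, the deviations from the group mean in replicate 1 were -0.74 for Arntl, -0.58 for Nr1d1, 0.48 for Per3 and 0.29 for Tef, and in replicate 3 they were 0.70, 0.80, -0.20 and -0.26 for the same genes.

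Other features also set single Sham/Benzene libraries apart. The sum of 5 heat shock genes was 1261 CPM in replicate 4 and 318 CPM in replicate 1, with a group median of 504 CPM. The sum of 10 immediate early genes was 337 CPM in replicate 4 (median 187 CPM), and that of 4 atrial markers was 216 CPM there and 30.6 CPM in replicate 3 (median 92.2 CPM). The sum of 10 glucocorticoid-responsive genes was highest in replicate 1, at 1443 CPM (median 1207 CPM). The part of these features in the spread of the clock genes was not tested.

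**Figure D4:**
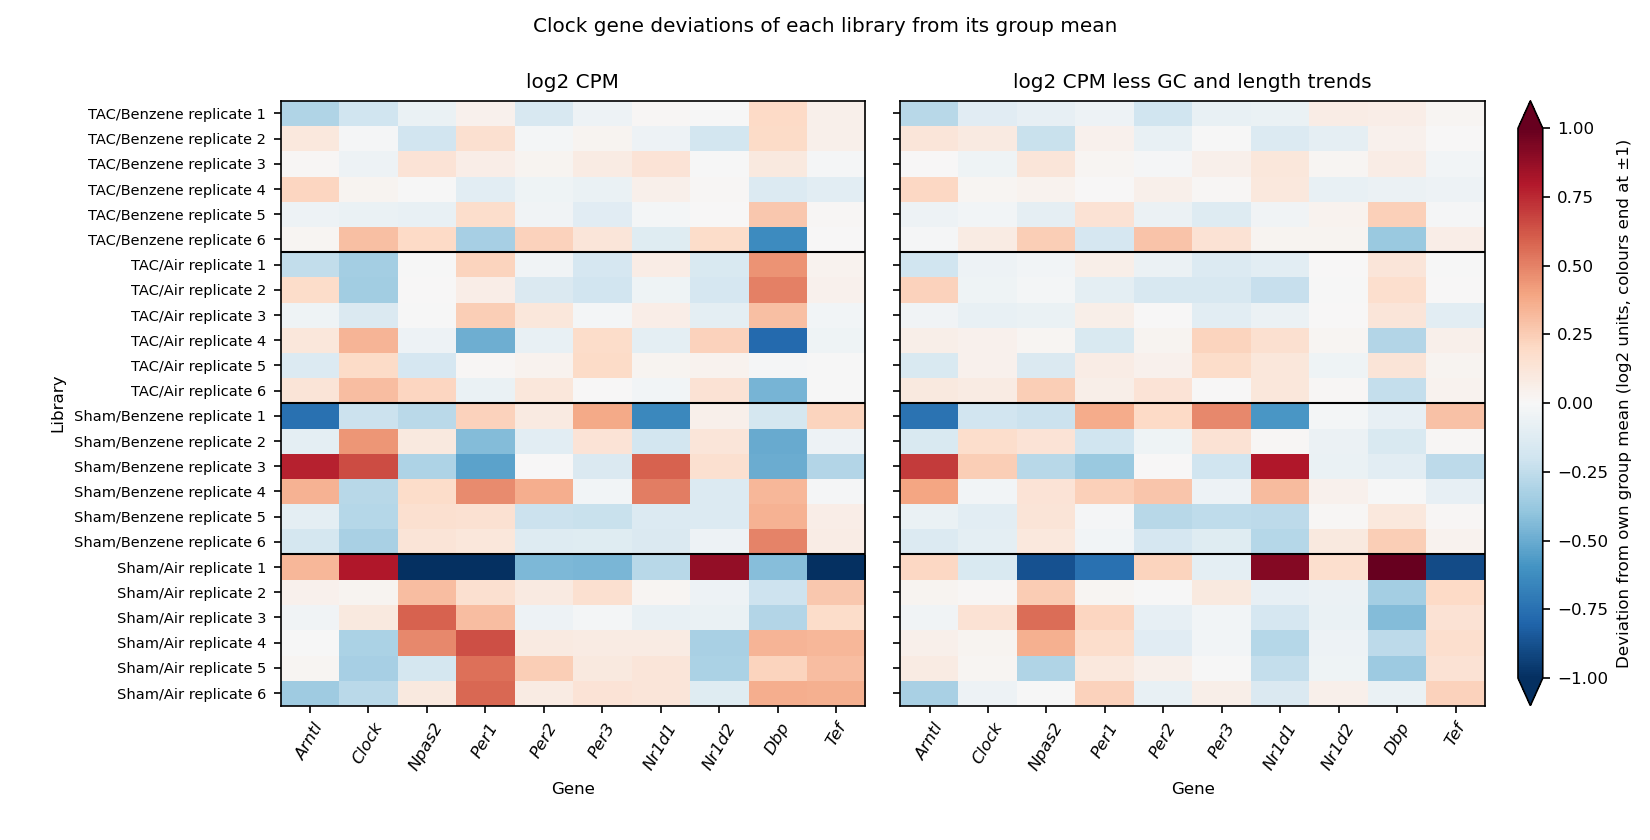
Deviation of each library from its own group mean for the 10 clock genes, in log2 units with colours ending at 1 in either direction, as measured (left) and with GC and length trends removed (right). Sham/Benzene replicate 1 is low in Arntl (-0.74) and replicate 3 high (0.77) in the left panel, and both stand out in the right panel as well, as does Sham/Air replicate 1.

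Co-variation with Arntl was examined with group means removed, as Pearson's r and Spearman's rho of log2 CPM over 24 libraries, with 100000 permutations within groups and adjustment over the 9 partner genes. At this setting 1 of the 9 passed, Tef, with r = -0.47 (permutation p = 0.00131, adjusted p = 0.0118) and rho = -0.53 (adjusted p = 0.0514). Without the 2 libraries farthest from the median of Arntl, Sham/Benzene replicates 1 and 3, r was -0.48. Nr1d1 had the largest r at 0.65 (permutation p = 0.0458, adjusted p = 0.088), but rho was 0.21 (adjusted p = 0.547) and r without those 2 libraries was 0.10, so that this relation rests on them. Clock had r = 0.52, Per3 -0.48 and Per1 -0.40 (adjusted permutation p = 0.088 each), and Dbp, Nr1d2, Npas2 and Per2 lay between -0.29 and 0.27.

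With GC and length trends removed, both Nr1d1 (r = 0.68) and Tef (r = -0.49) passed the permutation test (adjusted p = 0.0379 each). Without Sham/Air replicate 1, r was -0.82 for Tef (adjusted p = 0.0198) and 0.77 for Nr1d1 (adjusted p = 0.0663), by permutation. Within single groups the exact permutation test over 6 libraries can reach 0.00139 at the lowest. A single relation at that floor still cannot pass after adjustment over 36 relations, so the adjusted result cannot decide on any 1 relation. After adjustment 0 of 36 relations passed, with 2 at an unadjusted p under 0.05. Both were in Sham/Benzene: Arntl and Nr1d1 had r = 0.97 (exact p = 0.00556, adjusted p = 0.2) and rho = 0.83, and Arntl and Tef had r = -0.93 (exact p = 0.0236, adjusted p = 0.425) and rho = -0.94. Arntl and Nr1d1 had r = -0.82 in TAC/Air (exact p = 0.0514) and -0.76 in Sham/Air (exact p = 0.131). With GC and length trends removed these were -0.22 (exact p = 0.672) and 0.50 (exact p = 0.29), and r in Sham/Benzene was 0.95 (exact p = 0.00694). The differences between groups were not tested.

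Among all pairs of the 10 genes, many correlations of the deviations differed once GC and length trends were removed, in either direction, and they are given as a description over 24 libraries that share this trend. Clock correlated with Dbp at r = -0.85 and with Nr1d2 at 0.83, and Per1 with Nr1d2 at -0.95. After the trends were removed these were -0.53, -0.64 and -0.38. Other pairs were close to 0 or weakly correlated as measured and strongly opposed without the trends. Dbp and Tef had r = 0.35 as measured and -0.84 without the trends, Nr1d1 and Tef 0.09 and -0.83, and Per1 and Nr1d1 0.23 and -0.75. Without the trends, Sham/Air replicate 1 lay 1.47 above its group mean for Dbp and 0.92 above for Nr1d1. The same library was at -0.89 for Tef and -0.74 for Per1. As measured without that library, r was 0.45 for Dbp and Tef, -0.68 for Nr1d1 and Tef and -0.01 for Per1 and Nr1d1. How far the values without the trends rest on this library was not tested. Per1 and Tef had 0.94 as measured and 0.82 without the trends. Sham/Air replicate 1 is low for both, and as measured without that library their r was 0.62. As measured, Dbp followed the library GC trend most closely of the 10 genes (r = 0.90), and Clock ran against it (r = -0.87), whereas Arntl and Per3 had r = -0.23 and -0.08 with it. Removing the trends did not free every gene of this relation. Afterwards r with the library GC value was 0.54 for Per1, -0.53 for Nr1d1, -0.52 for Per2 and -0.43 for Per3. For the other genes it lay between -0.31 and 0.37. The part of this remainder in the pairs above was not tested.

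**Figure D5:**
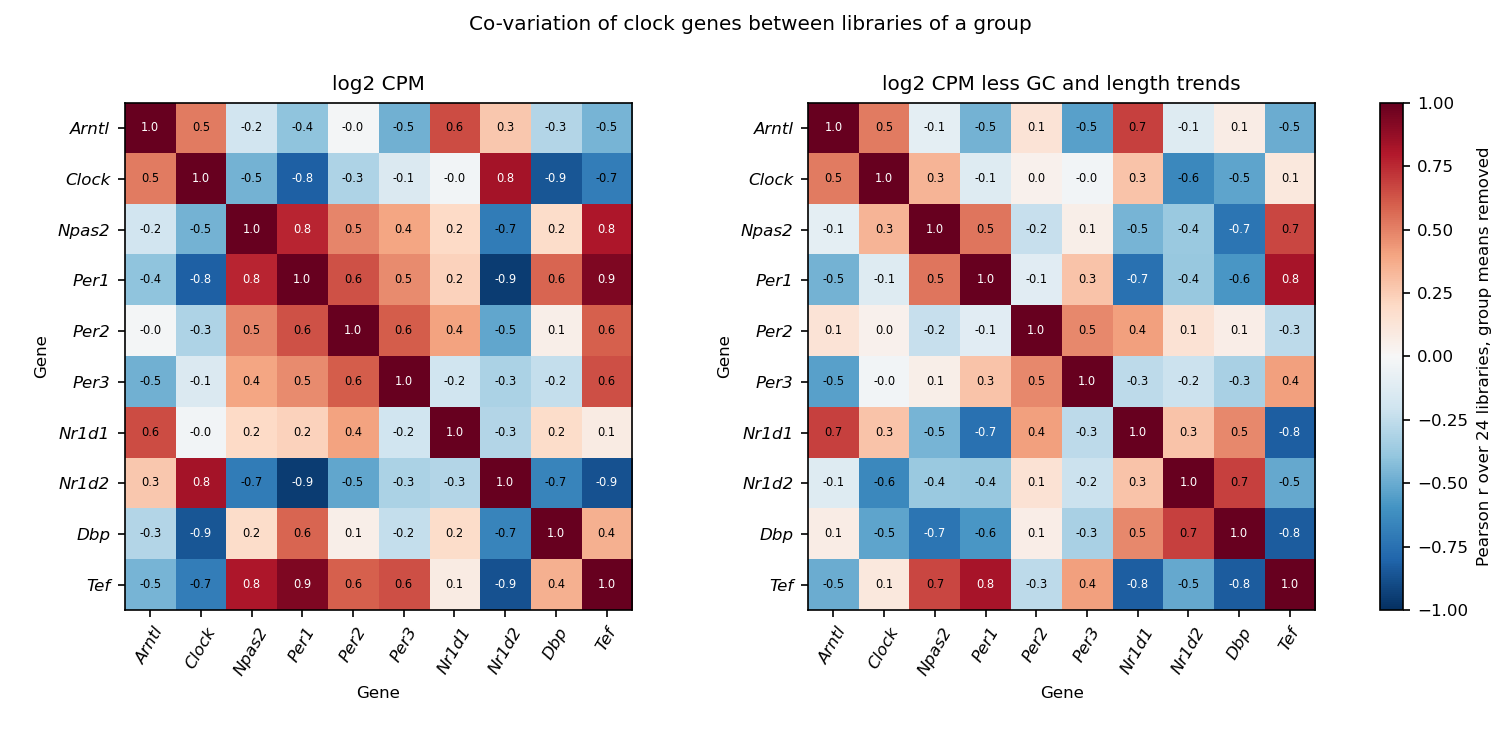
Pearson's r between the 10 clock genes over 24 libraries with group means removed, as measured (left) and with GC and length trends removed (right), rounded to 1 decimal. Arntl and Nr1d1 keep a positive r (0.65 and 0.68), while Clock and Nr1d2 turn from 0.83 to -0.64.

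Likeness to Arntl and to Dbp was ranked among 8971 genes that averaged 10 CPM or more. The 10 clock genes, the 20 further clock genes and unnamed gene models were left out of this ranking beforehand. It therefore does not show whether clock genes are among the closest correlates. Those most like Arntl in their deviations were Frmd5 (r = 0.83), Nr4a3 (0.82), Ppp1r3c (0.81), Ptpn21 (0.80) and P4ha1 (0.80), over 24 libraries. Those most opposed were Polr1e (-0.77), Cyp26b1 (-0.76), Adh1 (-0.76), Hsd11b1 (-0.75) and Mccc2 (-0.71). Of these 10 genes Frmd5, Nr4a3 and Polr1e were again among the 5 highest or lowest with GC and length trends removed. For Dbp the most alike were Nsfl1c (r = 0.96), Atp5g3 (0.96), Rpl28 (0.96), Atp5k (0.96) and Mrps5 (0.95), and the most opposed Kbtbd2 (-0.94), Rhot1 (-0.93), Naa20 (-0.92), Ulk2 (-0.92) and Cep85l (-0.92). None of those 10 was among the 5 highest or lowest for Dbp once the trends were removed, and none was when Sham/Air replicate 1 was left out. For Arntl, 4 of the 10 were when that library was left out.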

How the data were processed

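The authors deposited raw counts, as whole numbers by gene symbol, for 24 libraries. Per the submitters' processing notes, STAR, FastQC 0.11.9 and DESeq2 were used with the mm9 build. How reads were counted, on which annotation and with what strand handling is not given in the sources used here. Genes were filtered with edgeR 4.0.16 (R 4.3.3; minimum count 10, minimum total 15), leaving 13571, and scaled by TMM. The genes left out held 0.0747% of counts. The robust quasi-likelihood test modelled all 24 libraries, each group having 1 coefficient, and the threshold was 0.05 after Benjamini-Hochberg adjustment. Standard errors came from the F statistic, and 95% intervals from those with 20 degrees of freedom. Log2 CPM used a prior count of 2. Correlations were tested by permuting libraries (scipy 1.17.1). The longest transcript of each symbol in GENCODE vM21 gave GC content and length, matched for 98.5% of tested genes, and loess offsets (span 0.5) on them were chosen after seeing the data. Scripts were tested on simulated data. The alternatives were DESeq2 1.42.0, limma-voom (limma 3.58.1), relative log expression scaling, other filters, a fit of 2 groups, the replicate block and each library left out. Named genes are all 10 clock genes, the further clock genes called (else the 2 with the smallest p), and the 5 highest and lowest correlates of Arntl and Dbp. Those correlates were sought outside the 2 clock gene lists and without unnamed gene models. The members and lists were chosen with earlier results of these data known. No coordinates come from mm9; promoter stretches carry those of GRCm38.p6.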

Additional observations from a re-analysis of the deposited data

Results flagged for a closer look

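Sham/Air replicate 1 lay far from the other 5 libraries of its group for 5 of the 10 clock genes, by Dixon's test of the gap over the range. It had 120 CPM of Clock, where the nearest library had 73.7 CPM, and 433 CPM of Nr1d2, where the nearest had 227 CPM. It was low in Per1 at 8.81 CPM (nearest 47.0 CPM), in Per3 at 33.0 CPM (nearest 44.6 CPM) and in Tef at 76.7 CPM (nearest 240 CPM). These were 5 of 40 sets of a gene and a group, and chance alone flags about 1 in 20, or 2 of 40, if sets are independent. All 5 flags fell on 1 library whose deviations run along GC content across genes, so these sets are not independent. The chance count therefore does not measure how unusual the flags are. With GC and length trends removed, its deviations from the group mean were -0.15 for Clock, 0.17 for Nr1d2 and -0.10 for Per3, against -0.74 for Per1 and -0.89 for Tef, and 1.47 for Dbp. No clock gene passed the test of a difference in TAC effect between exposures.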

How the results depend on the processing

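Members' log2 fold changes kept direction and side of the threshold in 1074 of 1160 alternative values. Of the others, 28 gained a call, 23 lost one, and 35 changed sign, none of them for a called change. The number of the 10 genes called for TAC with benzene was 4, and 7 by limma-voom, 7 with GC and length offsets and 8 with those offsets on 23 libraries (without Sham/Air replicate 1). For TAC with air it was 4, and 2 in the fit of 2 groups and 8 with offsets on 23 libraries. For benzene in TAC hearts it was 0, and 1 in the fit of 2 groups (Nr1d1) and 1 with offsets on 23 libraries (Per1, log2 fold change -0.30, adjusted p = 0.034). Leaving out single libraries gave 3 to 6 for TAC with air, 3 to 4 with benzene and 0 to 0 in the other comparisons.

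Of the 20 further clock genes, 6 were called for TAC with air and 10 by limma-voom (5 to 9 with a library left out), and 6 to 10 with benzene with a library left out. For benzene in TAC hearts 1 was called, against 3 by limma-voom, 0 without the low-count filter, 0 with the replicate block, 2 with offsets and 3 on 23 libraries (0 to 1 with a library left out). The interaction gave 0, and 1 by limma-voom. Over all genes, TAC with air gave 2193 calls, and 3734 by limma-voom, 1278 in the fit of 2 groups, 3510 with offsets and 4278 on 23 libraries (1907 to 3169 with a library left out). TAC with benzene gave 2257, and 4479, 3621 with offsets and 4832 on 23 libraries (1929 to 2233). Benzene in sham hearts gave 3, and 28 by DESeq2, 1 without the filter, 1 in the fit of 2 groups, 20 with offsets and 29 on 23 libraries (1 to 5). Benzene in TAC hearts gave 79, and 171 by DESeq2, 554 by limma-voom, 46 with the replicate block, 276 in the fit of 2 groups, 230 with offsets and 611 on 23 libraries (52 to 68). The interaction gave 23, and 57 by DESeq2, 91 by limma-voom, 14 with the block, 55 with offsets and 179 on 23 libraries (15 to 49).

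Uncalled log2 fold changes that changed sign were, by limma-voom, Per1 for TAC with air (-0.11), Nr1d2 for benzene in sham hearts (0.10) and Per2 for benzene in TAC hearts (-0.024). With offsets they were Per1 for TAC with air (-0.015), Nr1d1 for TAC with benzene (-0.048), Clock (0.058), Nr1d2 (0.091) and Dbp (-0.23) for benzene in sham hearts, Per2 for benzene in TAC hearts (-0.012) and the interaction of Dbp (0.059), and on 23 libraries Per1 (-0.090), Nr1d1 (-0.050), Nr1d2 (0.088) and Per2 (-0.012) in the same comparisons. With single libraries left out, the ranges for TAC with air were -0.0023 to 0.27 for Clock and -0.12 to 0.17 for Per1, and for TAC with benzene -0.088 to 0.15 for Nr1d1. For benzene in sham hearts they were -0.28 to 0.024 for Arntl, -0.26 to 0.086 for Clock, -0.16 to 0.14 for Nr1d2 and -0.038 to 0.16 for Dbp. For benzene in TAC hearts they were -0.028 to 0.052 for Per2, -0.23 to 0.0014 for Dbp and -0.031 to 0.0023 for Tef, and for the interaction -0.0018 to 0.35 for Clock and -0.29 to 0.0052 for Nr1d2.

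The correlations of Arntl that passed numbered 1, and 7 with the replicate block (not Per2 and Dbp) and 2 less GC and length trends, where r turned to 0.13 for Per2, -0.13 for Nr1d2 and 0.073 for Dbp. Leaving out single libraries gave 0 (without Sham/Benzene replicate 3) to 3, with r of -0.38 to 0.064 for Npas2 and -0.19 to 0.19 for Per2. The median SD in Sham/Benzene, 0.31, was 0.28 to 0.34 with a library left out and 0.20 less the trends. Same-numbered libraries of the same surgery deviated together to a small degree over the 1000 most variable genes. Their r was above 0 in 12 of 12 pairs and above 0.1 in 8 (0.01 to 0.28). Over all genes, 8 of 24 libraries correlated best with their own number among the 6 libraries of the other group of that surgery. When all libraries of the other groups were searched, over those 1000 genes, 5 did. Between surgeries r was above 0 in 2 of 24 pairs (-0.31 to 0.04). Not every pair passed 0.1, so the numbers were not taken to pair the samples. With that block, Per3 for TAC with air (adjusted p = 0.0903) and Nr1d2 for TAC with benzene (adjusted p = 0.0534) were no longer called. The causes of these changes were not tested. Npas2 and Arntl had the lowest counts of the 10 genes, so that counting error weighs most on them.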
